A study of Mus musculus with 6 samples.

Results

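*Npvf*, *Npffr1*, *Qrfpr*, *Oxtr* and *Avpr1a* encode 1 neuropeptide precursor and 4 peptide receptors, and they are 5 of the 55421 genes in a count table of mouse retinas. They were listed by symbol, and were chosen from results of this same comparison of *Yap* cKO with control retinas, so their values are given as a description without a test. RNA was sequenced from 6 retinas of 2-month-old mice. The 3 controls (YR612, YR613 and YR615) were Yapfl/fl, and the 3 *Yap* cKO retinas (YR711, YR713 and YR714) were Yapfl/fl;RaxCreERT2. Both genotypes carry the floxed *Yap* alleles, and both received 4OH-T (4-hydroxytamoxifen, which switches on the inducible Cre) at P10 and P14. Cre follows the *Rax* promoter, which at these ages is active in Müller glia and in the non-pigmented epithelium of the ciliary body, so that other retinal cells keep *Yap*. Per the study's methods the retinas were cut free below the ora serrata and were independent biological replicates. The labels name no litter, so the spread between retinas may include technical differences.

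RFamide peptides are short neuropeptides that end in arginine and an amidated phenylalanine. *Npvf* encodes the precursor of the RFamide-related peptides, which are best known from hypothalamic neurons that restrain the reproductive axis, and *Npffr1* encodes their receptor. *Qrfpr* encodes the receptor of QRFP, another RFamide peptide, linked to feeding and wakefulness. Oxytocin and vasopressin are a pair of related cyclic peptides of the hypothalamus, and *Oxtr* and *Avpr1a* encode receptors for them that raise intracellular calcium through Gq.

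Between 24261799 and 35067068 fragments per retina were assigned to genes. *Yap1*, the deleted gene, lay between 9.48 and 9.83 TPM (transcripts per kilobase scaled to a common total, a level corrected for gene length and depth) in controls and between 3.76 and 3.99 TPM in *Yap* cKO retinas. Retinal markers were present throughout: *Rlbp1*, a Müller glia gene, lay at 717.9 TPM or above in every retina. In bulk tissue, fewer cells of a type and less RNA per cell cannot be told apart.

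The *Npvf* gene (ENSMUSG00000029831) lies on chromosome 6 of GRCm38, 50650672 to 50654439, on the minus strand. Its transcript has 812 bases, of which 564 are coding (188 codons). An RFamide precursor is cut after an arginine-phenylalanine-glycine run, whose glycine gives the amide, next to a basic residue. A search of the coding sequence found 2 such codon runs, both in exon 2 of 3 and each followed by a codon for arginine. These are the parts of the transcript that make it an RFamide gene, and they are shown from GENCODE M21 with the run in capitals. The first covers codons 93 to 95 (50652724 to 50652732) and the second codons 124 to 126 (50652631 to 50652639).
Npvf, first run: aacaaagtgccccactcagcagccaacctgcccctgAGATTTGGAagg
Npvf, second run: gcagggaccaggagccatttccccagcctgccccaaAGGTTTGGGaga

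YAP reaches DNA through TEAD factors, so the bases upstream of the start sites of the 3 members whose retinas did not overlap between the groups are also shown (RefSeq, GRCm38.p6, minus strand, 5′ to 3′). The core TEAD motif GGAATG, or its reverse complement CATTCC, was searched on both strands from 250 bases before to 50 after each start. Printed stretches begin 250 bases before the RefSeq start and hold 250 bases for *Npvf*, 212 for *Qrfpr* and 132 for *Oxtr*. Those of *Qrfpr* and *Oxtr* end where the gene's span in the count table begins, short of the RefSeq start. The searched window was longer than each printed stretch. Capitals mark a match, and among the 5 members the window of *Npvf* alone held one, at 107 to 102 bases before the start. The motif was present in 14.7% of the 32851 RefSeq promoters of that length (4817), and a match or its absence describes the letters only. The paper names *Oxtr* among potential direct targets of YAP, taken from a database that integrates genome-wide binding experiments.
Npvf, chr6:50654446-50654695: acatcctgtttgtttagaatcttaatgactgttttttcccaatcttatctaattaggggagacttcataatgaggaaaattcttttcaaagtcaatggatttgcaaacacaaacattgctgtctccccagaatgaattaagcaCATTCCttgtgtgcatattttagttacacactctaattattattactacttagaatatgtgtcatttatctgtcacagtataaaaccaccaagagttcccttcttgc
Qrfpr, chr3:36222314-36222525: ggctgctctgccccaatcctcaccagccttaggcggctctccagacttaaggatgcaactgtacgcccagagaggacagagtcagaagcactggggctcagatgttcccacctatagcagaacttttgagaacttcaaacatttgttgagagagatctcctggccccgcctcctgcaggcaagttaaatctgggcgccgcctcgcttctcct
Oxtr, chr6:112489944-112490075: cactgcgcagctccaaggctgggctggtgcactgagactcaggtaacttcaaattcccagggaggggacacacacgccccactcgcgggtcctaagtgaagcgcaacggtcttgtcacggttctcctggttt

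Of the 5 members, 3 did not overlap between the groups in TPM, namely *Npvf* and *Qrfpr*, lower in *Yap* cKO retinas, and *Oxtr*, higher in them. Groups that do not overlap made up 24.3% of all 16575 genes tested, and since the members were selected on this comparison nothing is read from that count. The other two, *Npffr1* and *Avpr1a*, were present at low levels and overlapped between the groups. In all, 4 of the 5 passed edgeR's filter on low counts, and *Avpr1a* did not.

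*Npvf*, the only ligand gene among the members, had 54, 58 and 46 counts in controls YR612, YR613 and YR615, and 0, 2 and 0 counts in *Yap* cKO YR711, YR713 and YR714. In TPM this was 10.1, 10.4 and 7.37 in the controls and 0, 0.283 and 0 in the *Yap* cKO retinas. Every control retina thus held a moderate level, 9.29 ± 1.67 TPM on average (SD, n = 3), and the transcript was at or near the limit of detection in every *Yap* cKO retina. A count of 3 corresponded to between 0.425 and 0.578 TPM in the *Yap* cKO retinas. Set against 3 counts in each of them, *Npvf* was at least 18.8-fold lower, and the bound stayed between 17.2 and 20.8 with any 1 retina left out or another scaling.

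*Npffr1*, the receptor for the *Npvf* peptides (ENSMUSG00000020090, chromosome 10, 61595492 to 61628565, plus strand), had 21, 8 and 14 counts in the controls and 16, 13 and 13 in the *Yap* cKO retinas. Its level was 0.591 ± 0.296 TPM (SD, n = 3) in controls and 0.565 ± 0.146 TPM with *Yap* deleted. The highest and the lowest retina were both controls (0.915 TPM in YR612 and 0.336 TPM in YR613). The log2 fold change was -0.14 with a standard error of 0.41, and it ran from -0.43 to 0.32 with 1 retina left out, so that no direction can be given at this depth. Side by side, the 3 controls and the 3 *Yap* cKO retinas held 158 and 2 counts in total for the ligand gene *Npvf*, and 43 and 42 for its receptor gene.

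*Qrfpr* (ENSMUSG00000058400, chromosome 3, 36179424 to 36222313, minus strand) was the member with the highest level in every control retina. It had 280, 339 and 408 counts in the controls and 119, 113 and 93 in the *Yap* cKO retinas. The TPM values were 19.4, 22.6 and 24.2 in YR612, YR613 and YR615, and 8.50, 5.92 and 6.21 in YR711, YR713 and YR714. The highest *Yap* cKO retina stayed well below the lowest control. The means were 22.0 ± 2.47 and 6.88 ± 1.41 TPM (SD, n = 3), and *Qrfpr* was 3.35-fold lower in *Yap* cKO retinas, or -1.75 ± 0.16 on the log2 scale (fitted change and its standard error). With any 1 retina left out or any other setting it stayed between -1.92 and -1.64. *Gm18893* lies within the span of *Qrfpr* on the same strand and shares 0 exonic bases with it.

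*Oxtr* (ENSMUSG00000049112, chromosome 6, 112473683 to 112489943, minus strand), the oxytocin receptor gene, had the opposite pattern. It had 36, 56 and 76 counts in the controls and 208, 391 and 395 in the *Yap* cKO retinas, or 1.14, 1.71 and 2.06 TPM against 6.80, 9.38 and 12.1 TPM. The lowest *Yap* cKO retina was above the highest control, although the levels within each group also ranged widely. From means of 1.64 ± 0.467 and 9.42 ± 2.63 TPM (SD, n = 3), *Oxtr* was 5.51-fold higher in *Yap* cKO retinas, or 2.46 ± 0.26 on the log2 scale (fitted change and its standard error). This was the second highest fitted log2 fold change of all genes tested, and it stayed between 2.23 and 2.67 with any 1 retina left out or any other setting.

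*Xist*, transcribed from the inactive X chromosome, was present in control YR615 and in *Yap* cKO YR713 and YR714, at 20.8, 43.2 and 35.2 TPM, and stood at or near 0 in the other retinas. Within each group, *Oxtr* was highest in these retinas. With a term for them in the fit, the log2 fold change of *Oxtr* was 2.25 and that of *Qrfpr* was -1.73. The part of sex in the level of *Oxtr* was not tested.

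*Avpr1a*, the V1a vasopressin receptor gene (ENSMUSG00000020123, chromosome 10, 122448499 to 122453452, plus strand), had 3, 6 and 2 counts in the controls and 3, 0 and 1 in the *Yap* cKO retinas. The totals were 11 and 4 counts. The highest level was 0.328 TPM, in control YR613, and YR711 had 0.176 TPM, above controls YR612 (0.170 TPM) and YR615 (0.0975 TPM). A difference was not detectable at this depth, and no fold is given.

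**Figure D1:**
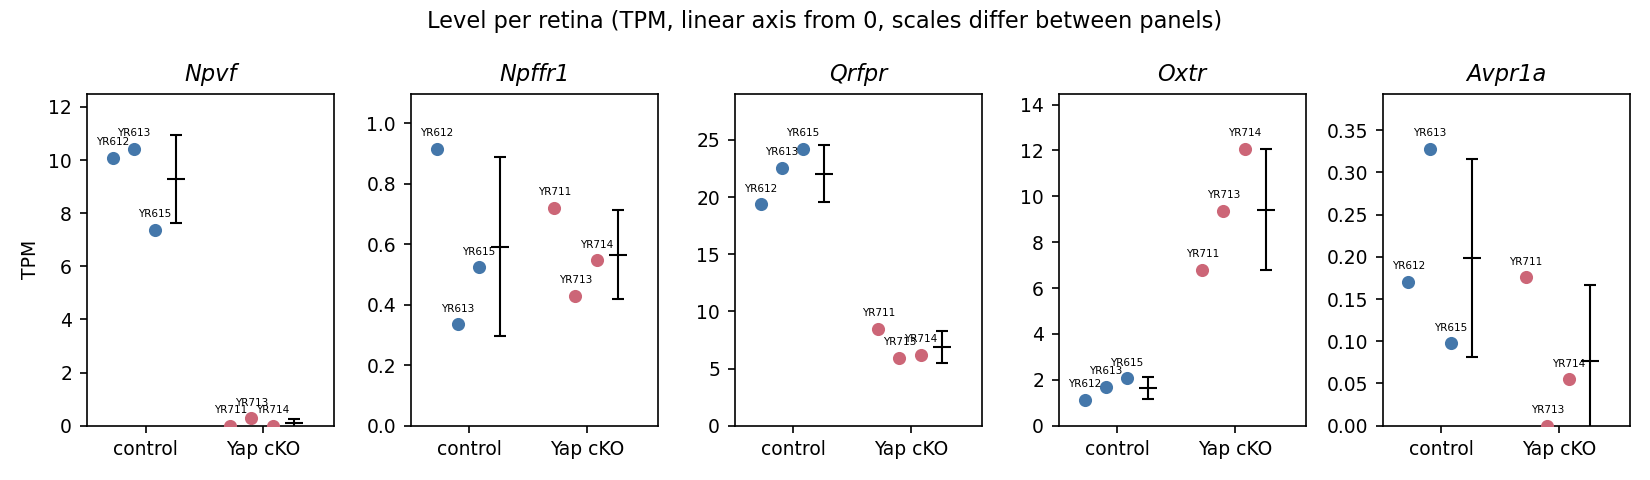
Level of each member in each retina, in TPM on a linear axis from 0 that differs between panels. Points are retinas with their codes, and the bar beside each group is its mean with the SD (n = 3), cut at 0. The controls lie at 7.37 TPM or above for *Npvf* and the *Yap* cKO retinas at 0.283 TPM or below, *Qrfpr* and *Oxtr* separate in opposite directions, and *Npffr1* and *Avpr1a* overlap.

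Ordered by TPM, all 3 controls gave the same sequence, *Qrfpr* first, then *Npvf*, *Oxtr*, *Npffr1* and *Avpr1a*. In each *Yap* cKO retina *Qrfpr* and *Oxtr* were the first pair and *Npffr1* the third. *Npvf* and *Avpr1a* closed the order at 3 counts or fewer each, too few to separate them. *Qrfpr* led in YR711 and *Oxtr* in YR713 and YR714. The ratio of the *Qrfpr* level to the *Oxtr* level was 17.0, 13.2 and 11.7 in the controls and 1.25, 0.632 and 0.514 in the *Yap* cKO retinas. The ranges of *Qrfpr* and *Oxtr* levels overlapped among *Yap* cKO retinas and were far apart among controls.

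Unlike *Npvf* in the controls, the ligand genes of the other 3 receptors had almost no counts in any of these retinas. *Qrfp*, the ligand gene of *Qrfpr*, had 0, 1 and 1 counts in the controls and 0 in every *Yap* cKO retina. *Oxt*, which encodes oxytocin, had 1, 0 and 0 counts in the controls and 0, 0 and 2 in the *Yap* cKO retinas. *Avp*, which encodes vasopressin, had 2, 0 and 1 counts in the controls and 0 in the others. A gene without a count in a retina could still have had up to 3 counts, and these limits cover counting error only. The difference in *Oxtr* level between the groups was thus measured in tissue where the gene of its ligand had 3 counts in all 6 retinas together.

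Of the 7 other genes of the RFamide system, 3 had no count in any retina, namely the NPFF receptor gene *Npffr2*, the kisspeptin gene *Kiss1* and the prolactin-releasing peptide gene *Prlh*. *Npff*, which encodes neuropeptide FF, had 5, 13 and 2 counts in controls and 8, 7 and 6 in *Yap* cKO retinas. *Prlhr*, the receptor gene for prolactin-releasing peptide, had 6, 13 and 3 counts in controls and 10, 11 and 8 in *Yap* cKO retinas. Both overlapped between the groups. *Kiss1r*, the kisspeptin receptor gene, was the only one of the 7 that passed the filter, with 2.59, 3.25 and 2.87 TPM in controls and 3.98, 3.75 and 5.09 TPM in *Yap* cKO retinas. The difference on the log2 scale, 0.50 with a standard error of 0.17, did not pass the threshold (Benjamini-Hochberg adjusted p = 0.151, edgeR quasi-likelihood fit). The list thus gave 0 called genes, beside 1.49% of all genes tested (247 of 16575) with an adjusted p of at most 0.05. It held 1 gene with an unadjusted p under 0.05 in the same fit, beside 3549 of all 16575 genes tested. DESeq2, edgeR's likelihood ratio test and limma-voom also called 0 of the list. Over all genes these 3 tools called 892, 1025 and 272.

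Among the 6 other genes of the oxytocin and vasopressin system, the vasopressin receptor genes *Avpr1b* and *Avpr2* had no count in any retina. *Lnpep*, the aminopeptidase also called oxytocinase, was the best expressed, between 25.0 and 40.1 TPM in controls and between 34.1 and 50.2 TPM in *Yap* cKO retinas. Its groups overlapped, and the log2 difference was 0.38 (standard error 0.16), and the Benjamini-Hochberg adjusted p in the edgeR quasi-likelihood fit was 0.225. *Cd38*, an ectoenzyme required for oxytocin release in the hypothalamus, lay between 1.16 and 1.40 TPM in controls and between 0.715 and 1.54 TPM in *Yap* cKO retinas (log2 fold change -0.10, adjusted p = 0.860 in the same edgeR fit). Of this list too 0 of the 2 genes tested were called by the quasi-likelihood fit or by DESeq2, edgeR's likelihood ratio test or limma-voom, with 1 at an unadjusted p under 0.05.

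Peptide genes outside these systems were compared in 4 further lists, which cover 50 ligands, 66 receptors, 15 genes of peptide processing and storage, and 21 signalling partners of the receptors. Of the 24 ligand genes tested, 2 were called higher and 1 lower. None of the 40 receptor genes tested was called by the edgeR quasi-likelihood fit. In that fit 11 of the 40 had an unadjusted p under 0.05, beside 3549 of all 16575 genes tested. DESeq2 called 1 of the 40, edgeR's likelihood ratio test 3 and limma-voom 0. *Calcrl*, which encodes a receptor that works with RAMP proteins, was called by the first pair of tools. The median log2 fold change of the 40 was 0.13, with 29 genes above 0 and 11 below, beside 0.0017 over all genes tested. Among the processing genes 1 of 15 was called, higher, and among the signalling partners 0 of the 20 tested, with 7 at an unadjusted p under 0.05. In that list *Arrb1*, an arrestin gene, was called by DESeq2 and by edgeR's likelihood ratio test, and 0 genes by limma-voom. Over all 6 lists, 4 of 102 genes tested were called (3.92%), beside 1.49% of all genes tested, and 37 of the 102 did not overlap between the groups, beside 24.3% of all genes tested.

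**Figure D2:**
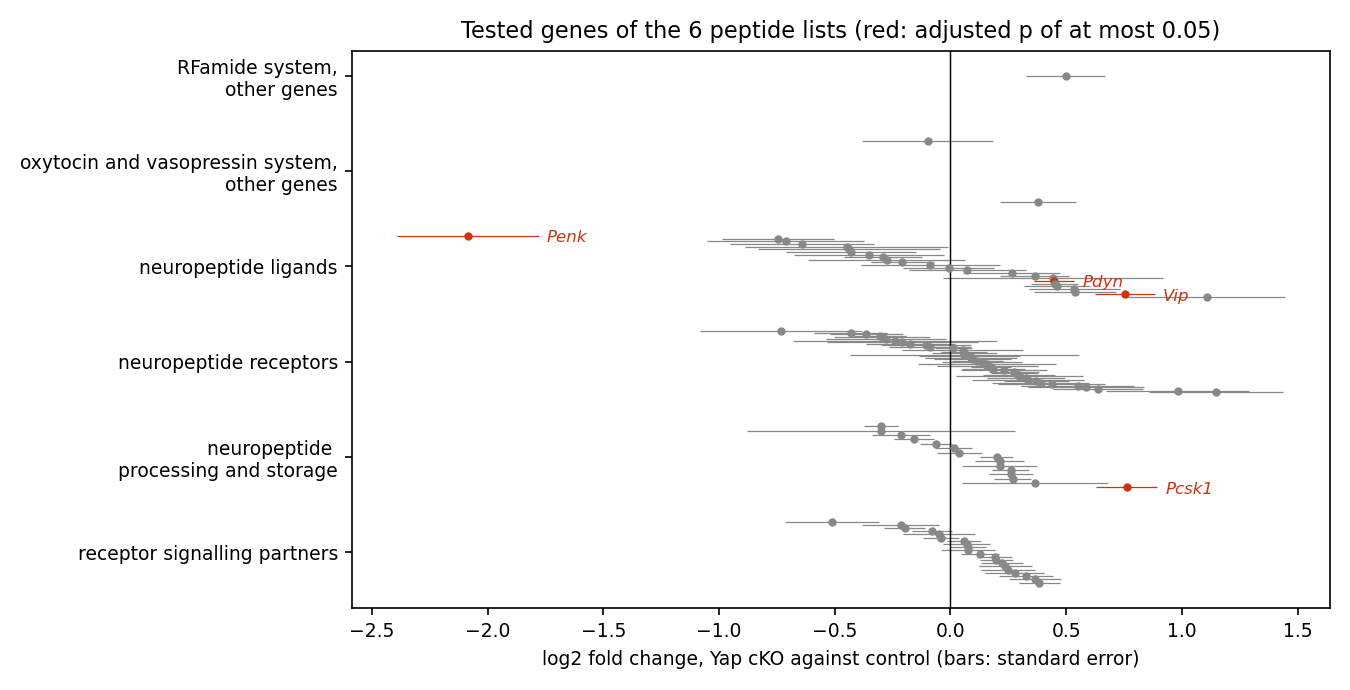
Log2 fold change of each tested gene of the 6 peptide lists, *Yap* cKO against control, with its standard error as a bar. The 4 genes in red, *Penk* at -2.09, *Pdyn* at 0.45, *Vip* at 0.75 and *Pcsk1* at 0.76, had an adjusted p of at most 0.05, and no receptor or signalling gene did.

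*Penk*, the precursor of the enkephalins, an opioid peptide family of amacrine cells, fell in *Yap* cKO retinas. It had 161, 71.8 and 89.7 TPM in YR612, YR613 and YR615, and 24.1, 34.2 and 21.0 TPM in YR711, YR713 and YR714. The controls were spread more than 2-fold, yet the lowest of them was above every *Yap* cKO retina. On the log2 scale the difference was -2.09 (standard error 0.31), and the Benjamini-Hochberg adjusted p in the edgeR quasi-likelihood fit was 0.0147. Without control YR615 the adjusted p was 0.0548, with a log2 fold change of -2.21.

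*Pdyn*, the precursor of the dynorphins, another opioid family, rose from 35.0, 32.9 and 37.0 TPM in controls to 48.0, 50.9 and 50.0 TPM in *Yap* cKO retinas. The log2 difference was 0.45 (standard error 0.087), and the Benjamini-Hochberg adjusted p in the edgeR quasi-likelihood fit was 0.0426. The opioid precursors *Penk* and *Pdyn* thus changed in opposite directions. The call of *Pdyn* held under 9 of 15 alternatives. Among these 9 is the fit without the filter on low counts, which also called all 5 sex-linked genes. The log2 fold change of *Pdyn* stayed between 0.39 and 0.52 under all 15, and its adjusted p in the edgeR quasi-likelihood fit reached 0.212 without *Yap* cKO YR713.

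*Vip*, which encodes vasoactive intestinal peptide, a product of some amacrine cells, rose from 16.1, 18.4 and 23.8 TPM to 34.1, 34.5 and 33.8 TPM. The *Yap* cKO retinas were nearly equal, and the controls were spread. The log2 fold change was 0.75 (standard error 0.13), and the Benjamini-Hochberg adjusted p in the edgeR quasi-likelihood fit was 0.0271. *Pcsk1*, a proprotein convertase that cuts peptide precursors, rose from 11.1, 15.6 and 17.3 TPM to 25.8, 26.9 and 24.9 TPM. Its log2 fold change was 0.76 (standard error 0.13), with an adjusted p of 0.0290 in the same edgeR fit. *Vip* and *Pcsk1* each held under 12 of 15 alternatives, the fit without the filter included. Both were lost without control YR612 and without *Yap* cKO YR711 or YR713. The list of 12 amacrine markers had 0 called genes in the quasi-likelihood fit (5 at an unadjusted p under 0.05) and 1, *Chat*, with DESeq2 or edgeR's likelihood ratio test. Its summed level was 2165 to 2379 TPM in controls and 2266 to 2397 TPM in *Yap* cKO retinas.

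**Figure D3:**
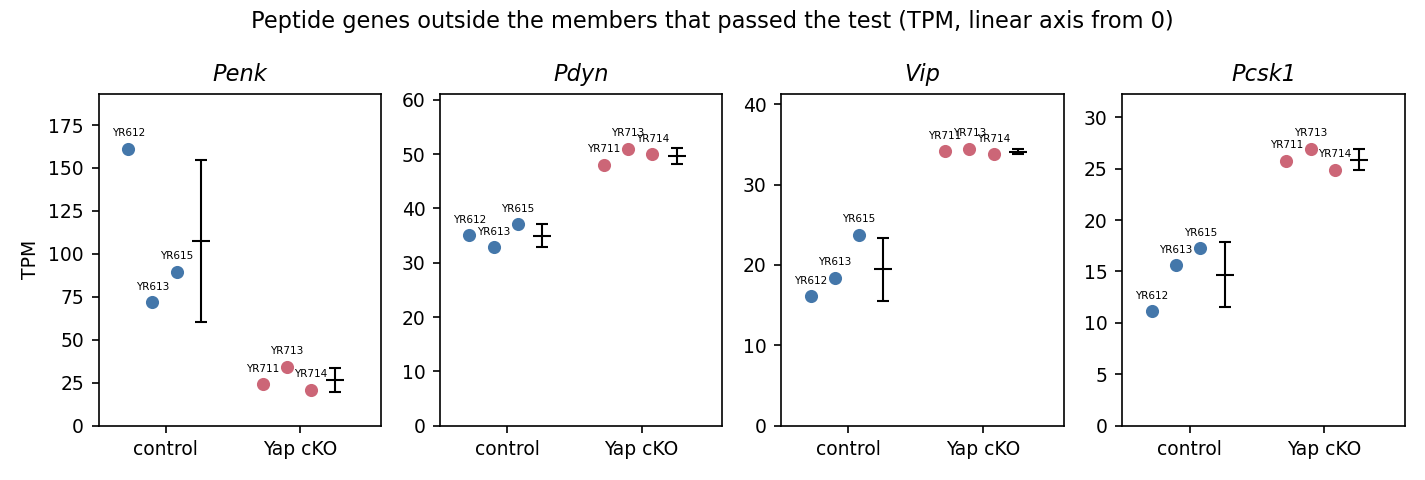
Level per retina, in TPM on linear axes from 0, of the 4 genes of the peptide lists that passed the test. Points are retinas with their codes, and bars are group means with the SD (n = 3). *Penk* lies at 71.8 TPM or above in controls and at 34.2 TPM or below in *Yap* cKO retinas, while *Pdyn*, *Vip* and *Pcsk1* are higher in every *Yap* cKO retina than in any control.

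The 3 ligand, 3 receptor and 3 processing genes with the highest mean TPM over the 6 retinas did not pass the quasi-likelihood test, although *Npy* and *Cpe* did with DESeq2 and with edgeR's likelihood ratio test, and *Scg2* with DESeq2. Among controls alone *Penk*, at a mean of 107.5 TPM, was second to *Cartpt*. The first ligands over all retinas were *Cartpt*, the precursor of the CART peptides (290.4 to 377.2 TPM in controls, 247.0 to 363.8 TPM in *Yap* cKO retinas), and *Npy*, neuropeptide Y (75.8 to 87.6 TPM and 112.2 to 114.9 TPM). *Npy* did not overlap between the groups, with a log2 fold change of 0.45 (standard error 0.10) but a Benjamini-Hochberg adjusted p of 0.0669 in the edgeR quasi-likelihood fit. *Tac2*, which encodes neurokinin B, came next by the mean over all retinas (59.8 to 80.5 TPM). Among the receptor genes the most abundant were the accessory protein gene *Ramp3* (80.2 to 107.6 TPM over all retinas), the natriuretic peptide receptor gene *Npr2* (33.7 to 37.4 TPM) and the neurokinin receptor gene *Tacr3* (26.8 to 43.6 TPM). The processing list was led by *Cpe*, carboxypeptidase E (2880 to 3017 TPM in controls, 2441 to 2582 TPM in *Yap* cKO retinas), and by the granins *Scg2* and *Chgb*. In the same edgeR fit *Cpe* had a log2 fold change of -0.30 (adjusted p = 0.0789) and *Scg2* one of 0.27 (adjusted p = 0.117).

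The genes with the profile most like that of each member were sought among all genes tested, as the smallest root mean square (RMS) difference of centred log2 CPM (counts scaled to library size) over the 6 retinas. For *Npvf* they were *Slc26a4*, which encodes the anion exchanger pendrin (RMS 0.28), *Fmod*, fibromodulin, a collagen-binding proteoglycan (0.43), and *Ltbp2*, a microfibril-associated protein of the ciliary zonule (0.48). All 3 were low in every *Yap* cKO retina: *Slc26a4* went from 8.87, 8.64 and 7.74 TPM to 0.201, 0.444 and 0.0941 TPM. They were chosen for this likeness, and the order of the *Yap* cKO retinas cannot be told for *Npvf* at 2 counts or fewer.

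For *Qrfpr* the nearest were *Colec12*, a scavenger receptor gene (RMS 0.14), *Aqp5*, a water channel gene (0.15), and *Gm3716* (0.17). *Colec12* had 1.30, 1.61 and 1.54 TPM in controls and 0.646, 0.474 and 0.486 TPM in *Yap* cKO retinas, and like *Qrfpr* it was highest in YR711 among these. For *Oxtr* the nearest were *Gm45623* (RMS 0.41), the phosphodiesterase gene *Pde10a* (0.52) and the serpin gene *Serpine3* (0.54). RMS values are not compared between members, whose own spread over the retinas differed (SD of log2 CPM 1.38 for *Oxtr* and 0.967 for *Qrfpr*). *Pde10a* had 4.48, 5.73 and 5.07 TPM in controls and 14.6, 20.1 and 14.8 TPM in *Yap* cKO retinas, so its highest retina was YR713, whereas that of *Oxtr* was YR714. For *Npffr1* they were *Cd40* (0.12), *Cd248* (0.15) and *Ccer2* (0.15), which like *Npffr1* were highest in control YR612 and lowest in control YR613. They were chosen for this likeness. *Cd40* had 6 to 15 counts per retina, *Cd248* 13 to 32 and *Ccer2* 10 to 25, so the order of the retinas is uncertain. These likenesses cover 6 retinas of 2 groups and share libraries and depth.

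The genes listed as markers of the tissue at the edge of the retina went in both directions. Their specificity for that tissue was not tested. Of 11 markers of the ciliary body non-pigmented epithelium and retinal margin, 5 were lower in *Yap* cKO retinas without overlap (*Optc*, *Otx1*, *Zic1*, *Zic2* and *Msx1*), 3 were higher without overlap (*Slc4a4*, *Aqp1* and *Atp1b2*) and 3 overlapped, where 24.3% of all genes tested did not overlap. The edgeR quasi-likelihood fit called *Optc* lower and *Slc4a4* higher. DESeq2 called 3 of the 11, edgeR's likelihood ratio test 5 and limma-voom 2, where these tools called 892, 1025 and 272 of all genes. The call of *Slc4a4* held in 4 of 9 settings with all retinas while that of *Optc* held in 9. *Optc*, which encodes opticin, a proteoglycan of the vitreous made by the ciliary epithelium, had 50.2, 45.6 and 48.2 TPM in controls and 2.86, 8.39 and 2.44 TPM in *Yap* cKO retinas. None of the 11 was without counts, and 8 of them had a lower mean in *Yap* cKO retinas. Their summed level was higher in *Yap* cKO retinas, 1661 to 1869 TPM against 1529 to 1636 TPM. Most of that sum came from *Atp1b2* (mean 1239 TPM in controls and 1411 TPM in *Yap* cKO retinas) and *Aqp1* (229 and 292 TPM). The sum therefore does not describe the other markers.

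All 7 melanin genes had a lower mean in *Yap* cKO retinas, 6 of them without overlap, and their sum was 75.0 to 81.9 TPM in controls and 17.9 to 50.6 TPM in *Yap* cKO retinas. The edgeR quasi-likelihood fit called 1 of them (*Pmel*), as did limma-voom, while DESeq2 called 2 and edgeR's likelihood ratio test 4. All 6 markers of the retinal pigment epithelium had a lower mean as well, 1 of them (*Rrh*) called by each of the 4 tools, and their sum ranged from 633.9 to 699.7 TPM and from 204.1 to 679.1 TPM. The part of the amount of margin or pigmented tissue in the levels of *Npvf* and *Qrfpr* was not tested. *Qrfpr* was at 38.5%, 26.9% and 28.2% of its control mean in YR711, YR713 and YR714, and *Pmel* at 17.9%, 48.0% and 16.5%.

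**Figure D4:**
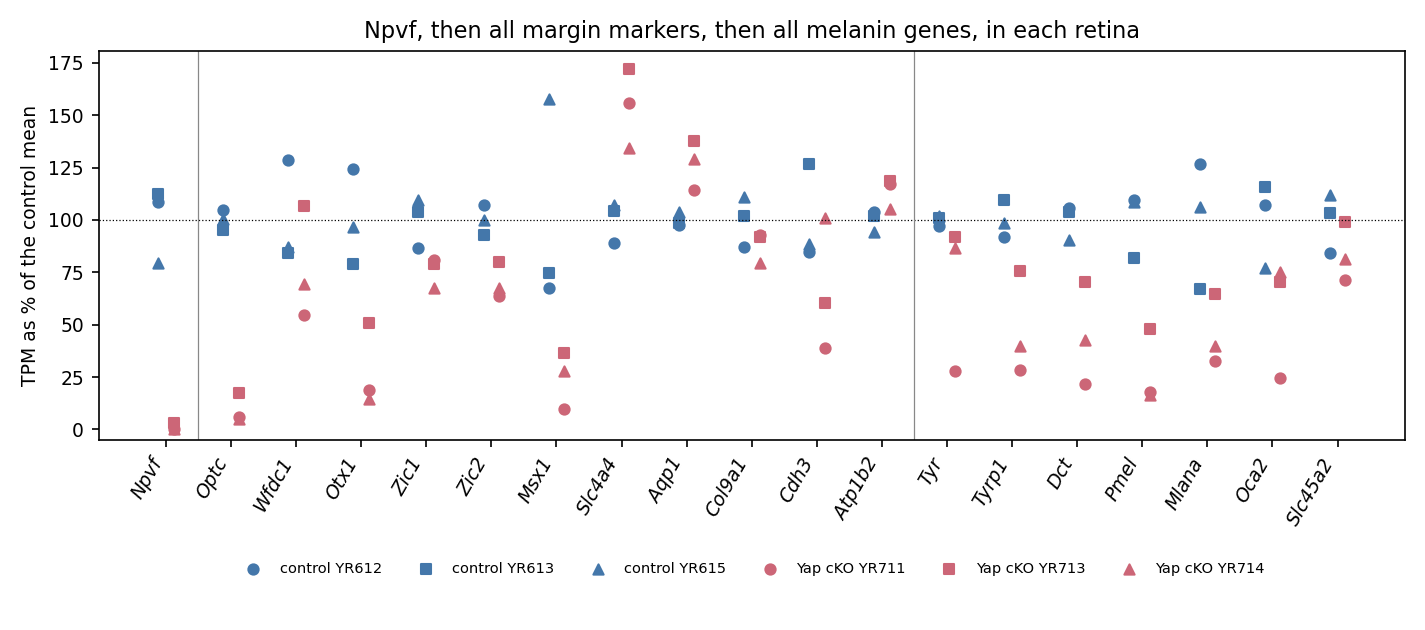
Level of *Npvf*, all 11 margin markers and all 7 melanin genes in each retina, as a percentage of the control mean on a linear axis; points are retinas, and the dotted line marks 100%. The *Yap* cKO retinas lie at 3.05% or less for *Npvf* and at 17.5% or less for *Optc*, above every control for *Slc4a4*, *Aqp1* and *Atp1b2*, and below every control for 6 of the 7 melanin genes.

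Of the 13 Müller glia markers 10 had a lower mean and 0 were called in the quasi-likelihood fit (6 at an unadjusted p under 0.05), while DESeq2, edgeR's likelihood ratio test and limma-voom each called *Rlbp1*. The 13 had a sum of 8020 to 8326 TPM in controls and 7070 to 7383 TPM in *Yap* cKO retinas. Of the 12 bipolar cell markers the quasi-likelihood fit called *Grm6* higher (9 at an unadjusted p under 0.05), as did limma-voom, and DESeq2 and edgeR's likelihood ratio test each called 3, *Grm6*, *Trpm1* and *Nyx*. *Aldh1l1* of 7 astrocyte markers and *Col1a2* of 7 connective tissue markers were called lower by each of the 4 tools. The quasi-likelihood fit called no marker of ganglion, horizontal, photoreceptor, microglial, vascular, lens or red blood cells. At an unadjusted p under 0.05 in that fit were 0 of 12 ganglion, 5 of 7 horizontal, 1 of 12 photoreceptor and 3 of 9 microglial markers. So were 3 of 12 vascular, 2 of 2 lens and 2 of 5 red blood cell markers tested, beside 3549 of all 16575 genes tested. The 2 lens genes tested, of 7 listed, were *Bfsp1* and *Bfsp2*, 1.87-fold and 1.89-fold lower without overlap. DESeq2 called 1 photoreceptor and 1 red blood cell marker, edgeR's likelihood ratio test 1 horizontal cell marker, and limma-voom 0 of these lists. The corneal list had 0 genes tested. The sum of the bipolar markers was higher in *Yap* cKO retinas, with a narrow gap between the groups (1437 to 1523.6 TPM in controls and 1525.7 to 1728 TPM). *Oxtr* itself was 5.51-fold higher in *Yap* cKO retinas. The sums of the ganglion cell markers (2324 to 2655 TPM and 2386 to 2668 TPM) and of the vascular markers (285.4 to 303.3 TPM and 249.0 to 336.7 TPM) overlapped between the groups. The part of the amounts of these cells in the level of *Oxtr* was not tested.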

How the data were processed

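Retinal RNA of 3 control and 3 *Yap* cKO mice was sequenced as stranded, paired-end libraries of polyadenylated RNA. The authors aligned reads to GRCm38 with STAR 2.7.3a and deposited raw counts of fragments on exons per gene, made with featureCounts 1.6.2 (strand setting 2; the file header names Ensembl release 98), together with each gene's exonic length, from which TPM was computed here. By default that program leaves out fragments that map to several places. Low genes were removed with filterByExpr, and the quasi-likelihood test of edgeR 4.0.16 (R 4.3.3), with TMM factors, was run on the remaining 16575 genes with Benjamini-Hochberg adjustment. The study's further criteria were a fold change of 1.5 and a mean TPM of 5. A fold is given as a bound, against 3 counts in each retina, for a gene with no more than 3 counts in every retina of a group. An exact permutation test of 3 against 3 retinas cannot go below 0.1.

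The members and gene lists were chosen with earlier results of these data known. The text names the members, every gene of the RFamide and oxytocin and vasopressin lists, other list genes called, the 3 most abundant genes of the ligand, receptor and processing lists, the 3 nearest profiles per member (log2 CPM, prior count 2), *Yap1*, and markers of lists that moved. *Xist*, *Rlbp1* and genes called only by other tools were named after their values were seen. The steps were tested on simulated data. Alternatives used DESeq2 1.42.0, limma 3.58.1, other scalings and filters, a length correction, a term for retinas with *Xist*, added after seeing the data, and each retina left out.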

Additional observations from a re-analysis of the deposited data

How the results depend on the processing

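The members kept their direction under every alternative that gave a value, except *Npffr1*, whose log2 fold change ran from -0.43 to 0.32. The counts moved more. The number of genes meeting all criteria (132) was 263 with DESeq2's Wald test, 291 with edgeR's likelihood ratio test and 369 without the filter. With 1 retina left out it ran from 38 to 516, being 38 without control YR615, 40 without YR612, 516 without YR613, 68 without *Yap* cKO YR713 and 448 without YR714. The number of genes of the 6 peptide lists called (4) was 9, 11 and 21 in the same 3 settings, and ran from 1 to 11 with 1 retina left out, being 1 without YR612 or YR713, 2 without YR615, and 11 without YR613 or YR714. The causes were not tested. Log2 fold changes rose with exonic length across the tested genes (Spearman's rho 0.391, genes not being independent). With a correction for length, those of *Qrfpr* and *Oxtr* were -1.64 and 2.45, and 6 list genes were called. The median log2 fold change of all genes stayed between -0.015 and 0.0073. No paired analysis was possible because the groups share no replicate numbers. Depth limits statements on *Avpr1a*, *Npffr1* and the ligand genes with at most 3 counts per retina.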
